A study of Mus musculus with 6 samples.

Results

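Small nucleolar and small Cajal body RNAs were followed in mouse embryonic stem cells whose translation had been blocked with cycloheximide. The genes were chosen by symbol alone (Snora, Snord or Scarna followed by a digit), which gave 78 of the 17485 genes listed in the files: 33 H/ACA box RNAs (Snora), 39 C/D box RNAs (Snord) and 6 small Cajal body RNAs (Scarna). The cells were E14, a mouse embryonic stem cell line of 129/Ola background, grown in serum with leukaemia inhibitory factor. Starting 24 h after seeding, they received 250 µg/mL cycloheximide, an inhibitor of translation elongation, in 0.007% ethanol for 3 h or 6 h, or ethanol without the drug for 9 h as control. Each of the 3 groups had 2 bulk libraries of polyadenylated RNA, 6 in all, and the labels do not say whether replicates came from separate cultures, so p-values measure only the spread between these libraries. Control and treated cells also differ in hours of exposure, which cannot be told apart from the drug. In bulk RNA, fewer cells of a kind and less RNA per cell cannot be told apart either.

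H/ACA box RNAs guide the conversion of uridine to pseudouridine in ribosomal and small nuclear RNA, as part of a particle built around dyskerin. C/D box RNAs guide ribose methylation by the particle that holds fibrillarin, and small Cajal body RNAs do either job on small nuclear RNAs. In vertebrates most are cut from introns of host genes after splicing, and the mature RNAs carry no long poly(A) tail, so a polyadenylated library holds only those molecules that entered it despite that or as part of a longer transcript. Which of these forms the counts reflect was not tested.

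Each of the 78 genes was found in the GENCODE M21 annotation of mm10, the mouse build named in the submitters' processing notes. The median annotated length was 132 bases for H/ACA box and 76 bases for C/D box RNAs. The letters ACA stood in the last 10 bases of 31 of the 33 H/ACA box RNAs (93.9%), against 14.4% of 141767 M21 transcripts. TGATGA, the common form of box C, stood in the first 15 bases of 24 of the 39 C/D box RNAs (61.5%), against 0.519% of those transcripts, and CTGA, the common form of box D, stood in the last 15 bases of 38 of 39 (97.4%), against 7.11%. The motifs were searched on the transcribed strand only, TGATGA and CTGA share the letters TGA but were sought at opposite ends, and a match is a description only. The 8 sequences here, copied from the M21 transcripts and written 5′ to 3′ as DNA, are those the results turn on, with any of these boxes in capitals. Snora75 (chr1:86351169-86351301, minus strand, intron of Ncl), Snora78 (chr17:24719676-24719803, minus strand, intron of Snhg9) and Snora41 (chr1:63179004-63179135, plus strand, intron of Eef1b2) have the ACA box near the 3′ end. Snora44 (chr4:132309941-132310069, plus strand, in Snhg12) and Snora81 (chr16:23110756-23110933, plus strand, in Eif4a2) are the H/ACA box RNAs without ACA in that window of the annotated sequence. Snord65 (chr11:62604515-62604586, plus strand, in 2410006H16Rik) and Snord47 (chr1:161038082-161038158, plus strand, in Gas5) represent the C/D box. Scarna9 (chr9:15326264-15326333, minus strand, in 5830418K08Rik) is a Cajal body RNA with C/D boxes. TGATGA and CTGA each stood in these windows in 3 of the 6 Cajal body RNAs.
Snora75: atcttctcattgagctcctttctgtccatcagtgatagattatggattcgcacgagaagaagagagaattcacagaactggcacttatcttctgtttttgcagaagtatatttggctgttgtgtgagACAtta
Snora78: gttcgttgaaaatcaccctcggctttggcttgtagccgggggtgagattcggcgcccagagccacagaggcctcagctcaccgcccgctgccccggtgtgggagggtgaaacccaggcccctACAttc
Snora41: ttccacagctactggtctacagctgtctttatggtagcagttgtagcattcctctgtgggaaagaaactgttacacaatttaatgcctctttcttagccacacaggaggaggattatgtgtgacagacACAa
Snora44: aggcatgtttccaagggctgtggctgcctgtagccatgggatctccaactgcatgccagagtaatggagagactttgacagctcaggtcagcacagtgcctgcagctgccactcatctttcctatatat
Snora81: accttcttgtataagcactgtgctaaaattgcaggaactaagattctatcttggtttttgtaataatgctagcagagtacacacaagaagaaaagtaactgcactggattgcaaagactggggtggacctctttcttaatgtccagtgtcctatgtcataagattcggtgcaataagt
Snord65: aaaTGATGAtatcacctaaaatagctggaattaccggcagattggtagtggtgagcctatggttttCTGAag
Snord47: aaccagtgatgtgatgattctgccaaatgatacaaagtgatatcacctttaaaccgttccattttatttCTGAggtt
Scarna9: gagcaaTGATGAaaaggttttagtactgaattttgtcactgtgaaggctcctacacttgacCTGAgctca

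Depth bears on RNAs this scarce. Library totals were 15423587 and 9385447 counts in control, 15297359 and 16760304 after 3 h, and 27351079 and 23121225 after 6 h, of which all 78 RNAs together took 2629, 1138, 746, 1257, 1091 and 1803 counts in the same order. Levels are given as CPM, that is, counts per 1000000 of a library total scaled by TMM (trimmed mean of M values), where 3 counts, used as the detection floor, equal 0.0989 to 0.366 CPM depending on the library. The floor and the intervals given with shares cover counting error only. Of the 9 stem cell markers all were listed, with a summed level of 6780 and 6948 CPM in control, 7881 and 8147 after 3 h, 5657 and 5477 after 6 h. The single markers did not move together. Sox2 had means of 2441 CPM in control, 3901 after 3 h and 2356 after 6 h. In the same order Pou5f1 had 144, 144 and 131 CPM, and Zfp42 had 701, 616 and 355 CPM. Of 5 fibroblast markers 3 were listed, with summed levels between 2.99 and 9.28 CPM. Of 7 markers of differentiated germ layers 6 were listed, with summed levels of 4.88 to 6.00 CPM in control, 13.0 to 14.2 at 3 h and 7.85 to 11.3 at 6 h. These genes were scarce, and 2 of the 6 were at or under the floor in every library. The control libraries stood apart for Gata4 (0.592 and 3.54 CPM), Gata6 (2.37 and 0.366 CPM) and T (2.52 and 0.122 CPM). In the mean, T was lower at both times, while Gata4, Gata6 and Sox17 were higher. The part of the germ layer markers in the results was not tested.

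The summed level of the H/ACA box RNAs was 179 and 124 CPM in control, 42.5 and 64.9 CPM at 3 h, and 32.6 and 64.9 CPM at 6 h. Both treated groups lay below both controls, and the 3 h and 6 h libraries overlapped. The means were 152 ± 39.2 (SD, n = 2), 53.7 ± 15.8 (SD, n = 2) and 48.7 ± 22.8 CPM (SD, n = 2). The treated means stood at 35.4% of control at 3 h and 32.1% at 6 h, as shares of a scaled library and not as amounts of RNA. The log2 change of this sum was -1.50 at 3 h and -1.64 at 6 h. With library size as the only scaling it was -1.27 and -1.28. The C/D box RNAs summed to 12.0 and 11.1 CPM in control, 4.58 and 5.14 CPM at 3 h, and 2.77 and 3.37 CPM at 6 h. Here no 2 groups overlapped, and the mean stood at 42.1% of control at 3 h and 26.6% at 6 h. The 6 Cajal body RNAs summed to 3.41 and 4.03 CPM in control, 1.03 and 2.54 CPM at 3 h, and 0.660 and 0.843 CPM at 6 h, again with no overlap and with 48.1% and 20.2% of the control mean left. Much of this Cajal body sum was Scarna13. It took 25 and 24 of 46 and 33 counts in control, 13 and 39 of 16 and 44 at 3 h, and 20 and 11 of 20 and 22 at 6 h. In the mean, 4 of the 6 Cajal body RNAs were lower than control at 6 h and 2 higher. An exact permutation test, two-sided, of 2 against 2 libraries cannot give a p below 0.33, so none of the class sums was tested. The plot of summed levels shows each library.

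**Figure D1:**
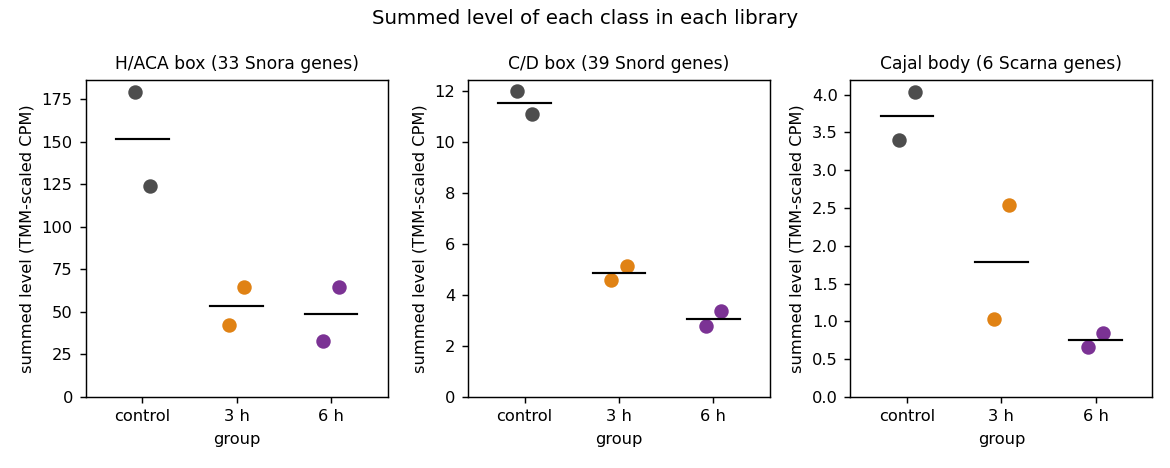
Summed level of each class (y axis, TMM-scaled CPM, starting at 0) in each library of the 3 groups (x axis); points are libraries and the line is the mean of 2. In H/ACA box RNAs the 3 h and 6 h libraries overlap, between 32.6 and 64.9 CPM, while in C/D box RNAs the 6 h libraries (2.77 and 3.37 CPM) lie below the 3 h libraries (4.58 and 5.14 CPM).

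H/ACA box RNAs held most of the counts of both box classes in every library. C/D box RNAs made up 6.27% of them (exact Clopper-Pearson 95% interval 5.37 to 7.28) and 8.24% (6.68 to 10.01) in the control libraries. At 3 h their share was 9.73% (7.67 to 12.1) and 7.34% (5.93 to 8.95), and at 6 h it was 7.84% (6.30 to 9.62) and 4.94% (3.98 to 6.05). The shares of the groups overlapped, so no difference in loss between the classes was larger than the spread between libraries. Per length, the median control level was 15.4 CPM per kb for H/ACA box and 1.36 CPM per kb for C/D box RNAs.

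Single genes were compared with edgeR's quasi-likelihood test on all 6 libraries, with p-values adjusted by the Benjamini-Hochberg method over the 12755 genes that passed a filter on low counts (at least 0.621 CPM before TMM scaling in at least 2 libraries). A gene was called changed at an adjusted p under 0.05, and the standard error (SE) of a log2 fold change is the one the test implies. Of the 78 RNAs 33 were tested, which were 26 of 33 H/ACA box, 5 of 39 C/D box and 2 of 6 Cajal body RNAs. Of these 33, 26 reached the filter's cutoff in the treated libraries alone and 7 only with the help of the control libraries, against 184 of all 12755 genes. Of those 7, 5 reached it in the control libraries alone and so had to be higher there, and counts over the tested RNAs therefore describe them and are not evidence for the class. The 3 h and 6 h comparisons share their control libraries.

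At 3 h, 5 of the 33 tested RNAs were called lower and 0 were called higher, where 1.3% of all tested genes were called lower and 3.6% higher. The 5 were Snora44, Snora78, Snora74a, Snora75 and Snora81, all of the H/ACA box. By limma-voom also 5 were called and by DESeq2 7, all lower. In 22 of the 33 both 3 h libraries lay below both control libraries, against 24.8% of all tested genes. The median log2 fold change was -1.08 for the 26 tested H/ACA box RNAs and -1.49 for the 5 tested C/D box RNAs, against 0.02 for all genes. Over the RNAs past the cutoff in treated libraries (23 H/ACA box and 2 C/D box) the medians were -1.04 and -0.65, so no order of the classes was read from them. The 5 calls rested on both 3 h libraries: without the first of them 0 were called (with the second as the lone 3 h library, assumed to vary like the other groups), and without the second 1.

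At 6 h, 16 of the 33 were called lower and 0 higher, where 14.3% of all tested genes were called lower and 14.8% higher. They were 12 H/ACA box RNAs (Snora5c, Snora20, Snora41, Snora44, Snora52, Snora62, Snora68, Snora69, Snora74a, Snora75, Snora78 and Snora81), the C/D box RNAs Snord47 and Snord65, and the Cajal body RNAs Scarna9 and Scarna13. DESeq2 called 18 and limma-voom 20, all lower. In 25 of the 33 both 6 h libraries lay below both controls, against 31.2% of all tested genes. Of the 26 RNAs that reached the cutoff without the controls, 5 had a 3 h call and 10 a 6 h call. Of those 10, 9 were H/ACA box, 0 C/D box and 1 Cajal body RNAs. Snora20, Snora52, Snora62, Snord47, Snord65 and Scarna9 thus entered the test only with the help of the control libraries. Their calls describe these RNAs and are not evidence for the classes. Median log2 fold changes were -1.55 for the tested H/ACA box and -2.34 for the tested C/D box RNAs, against 0.04 for all genes. Over the RNAs past the cutoff in treated libraries they were -1.35 for H/ACA box and -1.69 for C/D box RNAs, again with 2 of the C/D box. Without the first 6 h library 4 were called, without the second 6, and without the first control library 10. All 33 fitted changes were below 0 at both times, which with library size as the only scaling held for 32 at 3 h and 30 at 6 h. Without the first control library it held for 28 at 3 h and 27 at 6 h, the lowest counts over the alternatives on these 33 RNAs. The plot of fitted changes gives each RNA with its SE.

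**Figure D2:**
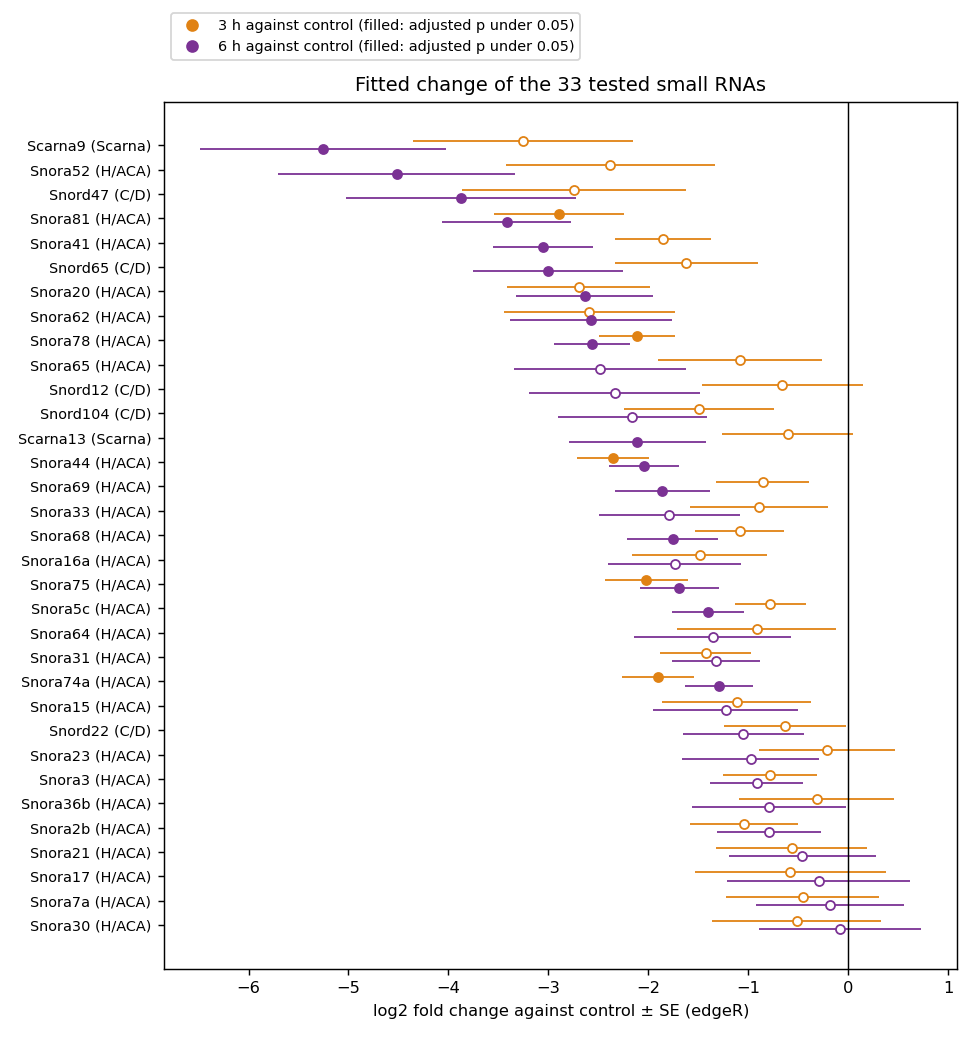
Log2 fold change against control (x axis) of the 33 tested RNAs (y axis, in order of the 6 h value), with bars of ± 1 SE from the edgeR fit; orange is 3 h, purple is 6 h, and filled points have an adjusted p under 0.05. All points lie left of 0, with 5 filled at 3 h and 16 at 6 h; the bars are widest for the RNAs with fewest counts, such as Scarna9 and Snora52.

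Between 6 h and 3 h none of the 33 was called by edgeR, limma-voom or DESeq2, where edgeR called 1.64% of all tested genes in either direction. An unadjusted edgeR p under 0.05 was found for 1 of the 33, Snora41, and for 2315 of all 12755 tested genes. Both 6 h libraries lay below both 3 h libraries in 10 of 33 RNAs, against 26.9% of all tested genes. These 10 were 3 of 26 H/ACA box, 5 of 5 C/D box and 2 of 2 Cajal body RNAs. The split covers tested RNAs only. Of the 34 C/D box RNAs not tested, 6 lay below without overlap and 3 above. In the mean 15 of these 34 were lower at 6 h than at 3 h and 12 higher. Scarna9, 1 of the 2 Cajal body RNAs, had 2 and 1 counts at 3 h against 0 and 1 at 6 h. The median log2 difference was -0.19 for H/ACA box RNAs, a value that turned positive without the second 3 h library (0.15) or without the first 6 h library (0.25). For the 5 C/D box RNAs it was -1.13, ranging from Snord12 at -1.68 to Snord22 at -0.42, and 3 of these 5 had passed the filter only with the control libraries. The difference between the classes was not tested.

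Snora75, which lies in an intron of the gene for nucleolin (Ncl), was the most abundant H/ACA box RNA per length in control. Its level was 33.9 and 21.4 CPM in control, 6.26 and 7.45 CPM at 3 h, and 4.98 and 12.3 CPM at 6 h. Every treated library lay below both controls, and the 6 h libraries lay on either side of the 3 h pair. The log2 fold change was -2.02 (SE 0.41, edgeR adjusted p = 0.0325) at 3 h and -1.69 (SE 0.40, edgeR adjusted p = 0.0151) at 6 h. The 3 h call was lost in 4 of 15 alternatives (edgeR adjusted p up to 0.175). The 6 h call was lost without the first control library or the first 6 h library, with adjusted p-values over all alternatives from 6.35e-11 to 0.0549.

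Snora44, 1 of 4 small RNAs within Snhg12, stood at 28.8 and 18.1 CPM in control, 4.20 and 5.02 CPM at 3 h, and 3.89 and 7.59 CPM at 6 h. The treated libraries were all below the controls and the 3 h libraries fell inside the 6 h range. Its log2 fold change was -2.35 (SE 0.36, edgeR adjusted p = 0.0120) at 3 h and -2.04 (SE 0.35, edgeR adjusted p = 0.00450) at 6 h. Because 2 of 10 annotated Snhg12 transcripts, neither of them a retained-intron form, have an exon that overlaps it, reads of the host and of Snora44 could be counted in either gene.

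Snora78 lies in the short non-coding gene Snhg9. It was measured at 13.5 and 10.1 CPM in control, 1.81 and 3.64 CPM at 3 h, and 1.78 and 2.22 CPM at 6 h. The log2 fold change was -2.11 (SE 0.38, edgeR adjusted p = 0.0215) at 3 h and -2.57 (SE 0.38, edgeR adjusted p = 0.00269) at 6 h. No treated library came near the lower control. Snora81, in an intron of the translation initiation helicase gene Eif4a2, read 8.22 and 6.59 CPM in control, 1.55 and 0.462 CPM at 3 h, and 0.363 and 1.03 CPM at 6 h. Here too the controls stood apart and the treated groups overlapped. Its log2 fold change was -2.89 (SE 0.65, edgeR adjusted p = 0.0435) at 3 h, a call lost in 7 of 15 alternatives, and -3.42 (SE 0.65, edgeR adjusted p = 0.00666) at 6 h.

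Snora74a stood at 10.96 and 10.01 CPM in control, 2.65 and 2.95 CPM at 3 h, and 2.94 and 5.67 CPM at 6 h. The 6 h pair was the more spread, yet below both controls. The log2 fold change was -1.91 (SE 0.36, edgeR adjusted p = 0.0248) at 3 h and -1.29 (SE 0.34, edgeR adjusted p = 0.0235) at 6 h, and the 6 h call was lost in 3 of 15 alternatives, library size as the only scaling among them. Snora41, in an intron of the translation elongation factor gene Eef1b2, measured 5.70 and 4.76 CPM in control, 1.03 and 1.85 CPM at 3 h, and 0.528 and 0.728 CPM at 6 h. The 3 groups did not overlap and stood in the order control, 3 h, 6 h. The log2 fold change was -1.85 (SE 0.48, edgeR adjusted p = 0.0618) at 3 h and -3.06 (SE 0.50, edgeR adjusted p = 0.00390) at 6 h.

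The remaining H/ACA box RNAs called at 6 h lie mostly in genes for ribosomal proteins. Snora69, in Rpl39, read 7.26 and 6.11 CPM in control, 2.001 and 5.37 CPM at 3 h, and 1.55 and 2.15 CPM at 6 h. Snora68 read 5.33 and 4.64 CPM in control, 1.74 and 2.95 CPM at 3 h, and 1.09 and 1.88 CPM at 6 h. In both, each treated library was below each control. The 6 h log2 fold changes were -1.86 (SE 0.48, edgeR adjusted p = 0.0209) for Snora69 and -1.76 (SE 0.45, edgeR adjusted p = 0.0215) for Snora68. Snora62, in Rpsa, was measured at only 0.963 and 1.71 CPM in control and at 0.165 to 0.268 CPM in the 4 treated libraries, and its 6 h log2 fold change of -2.57 (SE 0.81, edgeR adjusted p = 0.0429) lost its call in 10 of 14 alternatives. Snora52, in Rplp2, had 16 and 6 counts in control, 2 and 4 after 3 h, 0 and 2 after 6 h, where the summed 6 h counts were 3.50% of the control level (exact 95% counting interval 0.398 to 14.2). Its 6 h log2 fold change from the fit was -4.52 (SE 1.19, edgeR adjusted p = 0.0228).

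Snora20, in an intron of the chaperonin gene Tcp1, fell from 2.89 and 3.05 CPM in control to 0.264 and 0.690 CPM at 6 h, a log2 fold change of -2.64 (SE 0.69, edgeR adjusted p = 0.0222), and was at 0.323 and 0.577 CPM at 3 h. The 3 h level was as low as that at 6 h, although the 3 h difference of -2.69 (SE 0.72, edgeR adjusted p = 0.0683) was not called. Snora5c, in Tbrg4, read 16.1 and 8.43 CPM in control, 5.87 and 8.55 CPM at 3 h, and 3.92 and 5.48 CPM at 6 h. Its 3 h libraries overlapped the controls and its 6 h libraries did not. The 6 h log2 fold change was -1.40 (SE 0.36, edgeR adjusted p = 0.0202), and the call was lost in 4 of 15 alternatives, library size as the only scaling among them.

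Other abundant H/ACA box RNAs were not called at either time. Snora3, in Rpl27a, read 9.63 and 5.37 CPM in control, 3.23 and 5.60 CPM at 3 h, and 2.54 and 5.56 CPM at 6 h, so that a treated library reached the lower control at both times. Its 6 h log2 fold change was -0.91 (SE 0.46, edgeR adjusted p = 0.171). Snora23, in Ipo7, read 4.74 and 1.59 CPM in control, 2.39 and 3.23 CPM at 3 h, and 0.726 and 2.61 CPM at 6 h. Its groups overlapped, and its 3 h difference of -0.21 (SE 0.68, edgeR adjusted p = 0.884) turned positive with library size as the only scaling (0.02) or without the first control library (0.82). The 12 tested H/ACA box RNAs that were neither called nor among the most abundant had 6 h log2 fold changes between -2.48 (Snora65) and -0.08 (Snora30). The plot of levels by library covers the 18 RNAs described one by one.

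**Figure D3:**
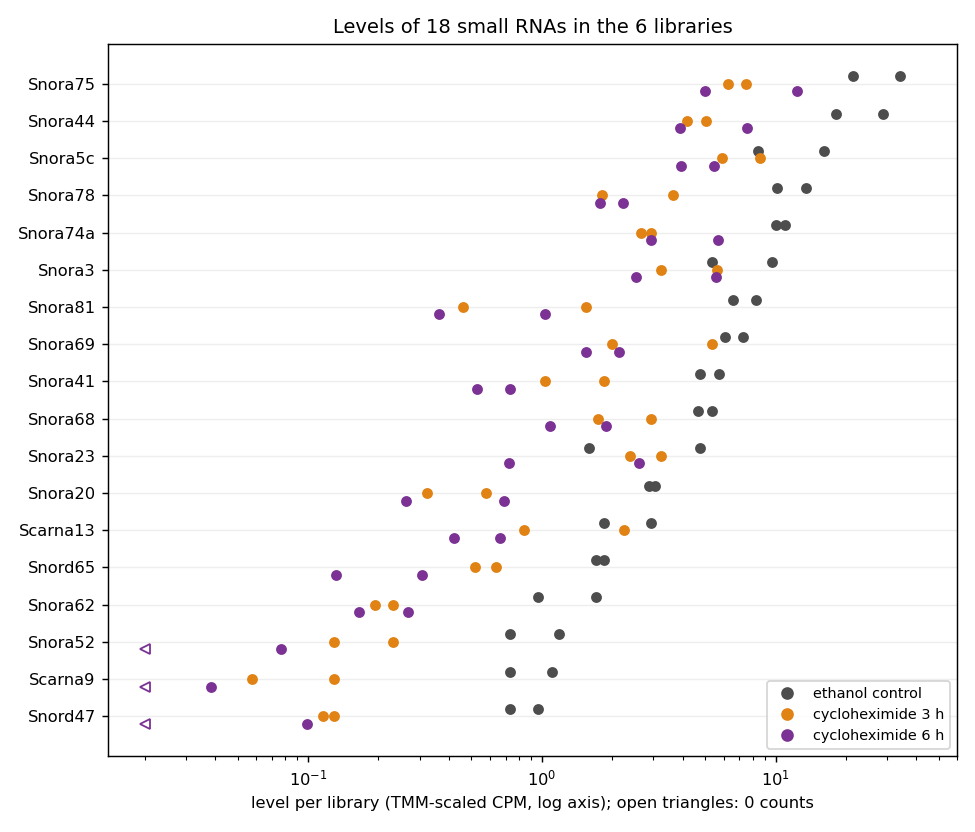
Level of 18 RNAs (y axis) in each of the 6 libraries (x axis, TMM-scaled CPM on a log axis); grey is control, orange 3 h and purple 6 h, and open triangles mark libraries with 0 counts. The controls lie right of every treated library for most RNAs, with overlap for Snora5c at 3 h, Snora3, Snora23 and Scarna13 at 3 h.

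Among C/D box RNAs Snord65, which shares the non-coding gene 2410006H16Rik with Snord49a and Snord49b, read 1.85 and 1.71 CPM in control, 0.516 and 0.635 CPM at 3 h, and 0.132 and 0.306 CPM at 6 h. The 3 groups did not overlap. Its 6 h log2 fold change was -3.005 (SE 0.75, edgeR adjusted p = 0.0193) and the 3 h value was -1.62 (SE 0.71, edgeR adjusted p = 0.205). Snord47, in Gas5, had 13 and 6 counts in control, 2 and 2 after 3 h, 3 and 0 after 6 h, and the summed 6 h counts were 6.07% of the control level (exact 95% counting interval 1.15 to 20.6). The fitted 6 h log2 fold change was -3.87 (SE 1.15, edgeR adjusted p = 0.0355), a call lost in 8 of 14 alternatives. Snord22, the RNA known to be needed for processing of the small ribosomal subunit RNA, read 2.07 and 1.10 CPM in control, 1.16 and 0.924 CPM at 3 h, and 0.792 and 0.766 CPM at 6 h, and was not called (6 h log2 fold change -1.05, edgeR adjusted p = 0.229). Snord12 (-2.34, edgeR adjusted p = 0.0711) and Snord104 (-2.16, edgeR adjusted p = 0.0602) were below both controls at 6 h and not called.

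Scarna9, a guide for small nuclear RNA methylation, had 15 and 6 counts in control, 2 and 1 after 3 h, 0 and 1 after 6 h. The summed counts stood at 9.45% of the control level at 3 h (exact 95% counting interval 1.80 to 31.6) and 1.83% at 6 h (0.0443 to 11.4). The fitted log2 fold change at 6 h was -5.25 (SE 1.23, edgeR adjusted p = 0.0149), and the call was lost without either 6 h library. Scarna13, an H/ACA type RNA within the non-coding gene Snhg10, read 1.85 and 2.93 CPM in control, 0.839 and 2.25 CPM at 3 h, and 0.660 and 0.421 CPM at 6 h. It overlapped the controls at 3 h and not at 6 h, when its log2 fold change was -2.11 (SE 0.69, edgeR adjusted p = 0.0488), a call lost in 5 of 15 alternatives. The other 4 Cajal body RNAs had between 0 and 7 counts in any library and were not tested.

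The 45 RNAs below the filter, of which 34 are C/D box RNAs, had few counts each and were summed. Together they read 8.89 and 7.08 CPM in control, 2.45 and 3.41 CPM at 3 h, and 1.75 and 3.26 CPM at 6 h. Every treated library lay below both controls, with 36.7% of the control mean left at 3 h and 31.3% at 6 h. The 34 C/D box RNAs among them held 39.9% and 30.8% of their control level. One by one, the 45 were lower than control in the mean in 33 cases at 3 h and in 32 at 6 h, and higher in 8 and 11, the rest being at 0 in both groups. Snord87, in Snhg6, had 10 and 4 counts in control, 0 and 0 after 3 h, 2 and 1 after 6 h. Snord38a ran the other way, with 0 and 0 counts in control, 4 and 3 after 3 h, 6 and 1 after 6 h, and it was the one RNA of all 78 whose 6 h libraries both lay above both controls. Both were picked out after their values were seen. In these libraries at least 1 count was found for 62 and 58 of the 78 RNAs in control, 53 and 55 after 3 h, 50 and 57 after 6 h, and after thinning each library to 9385447 counts for 58 and 58, 49 and 47, and 40 and 48.

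A host gene, that is, an annotated gene on the same strand that spans the small RNA, was listed in the files for 73 of the 78 RNAs. These were 56 different genes, and 28 RNAs shared a host with another of the 78. For 71 of the 73 the host came from GENCODE M21. Of these, 35 RNAs overlapped no exon of the host, 26 overlapped exons of retained-intron transcripts only, and 10 overlapped exons of other host transcripts. How reads in such overlaps were counted, and whether by strand, is not given in the sources used here.

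Of the 30 tested RNAs with a tested host, 28 had a lower log2 fold change than the host at 3 h and 27 at 6 h. The median gap was -0.99 at 3 h and -1.49 at 6 h on the log2 scale. Among the 30, Snora20, Snora52, Snora62, Snord47, Snord65 and Scarna9 entered the test only with the help of the control libraries. Comparisons with hosts, here and by kind of host, therefore describe the tested RNAs and are not evidence for the classes. Across these 30 pairs, some of which share a host, the changes of RNA and host at 6 h had a Pearson r of -0.21 and a Spearman rho of -0.36. At 3 h the values were -0.10 and -0.05. Both are given as a description. Of the 29 hosts, 6 were called higher at 3 h and 0 lower, and at 6 h 6 were called higher and 16 lower. Of all tested genes, 3.6% were called higher and 1.3% lower at 3 h, and 14.8% higher and 14.3% lower at 6 h. With library size as the only scaling, 9 hosts were called higher and 4 lower at 6 h. Under that scaling 3671 of all 12755 tested genes were called higher at 6 h. The plot of each RNA against its host shows hosts on both sides of 0 and RNAs on the lower side only.

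**Figure D4:**
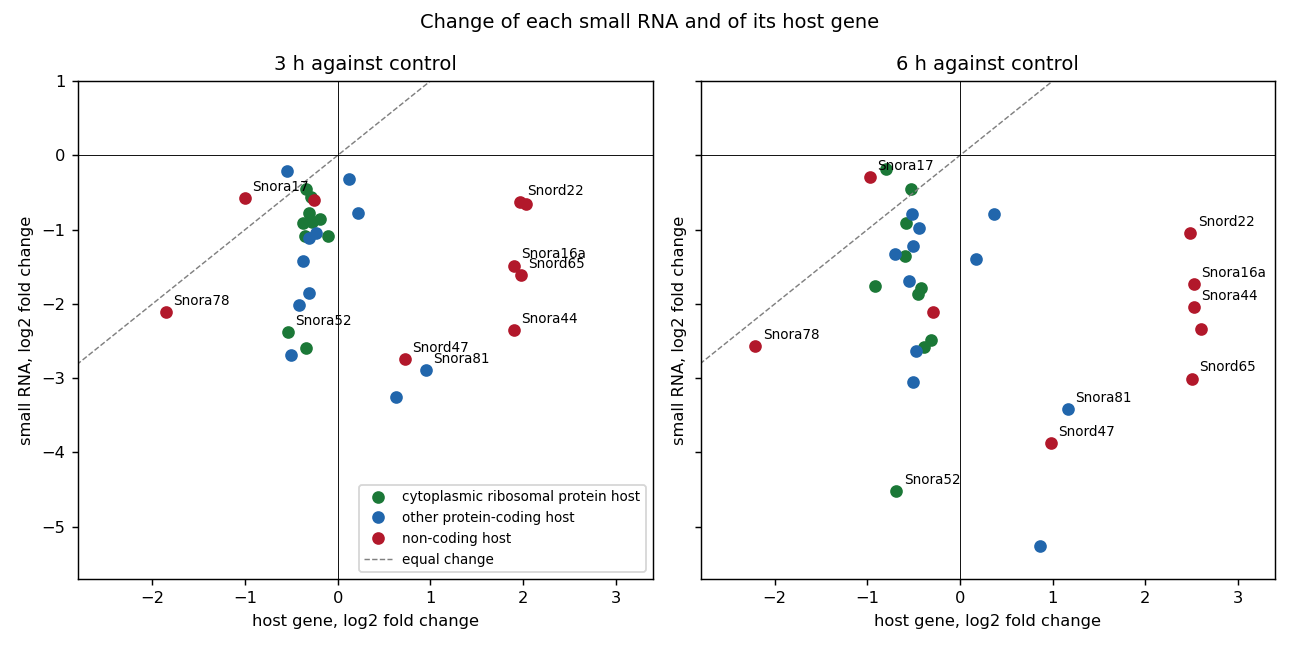
Log2 fold change of each of the 30 RNAs with a tested host (y axis) against that of its host gene (x axis), at 3 h (left) and 6 h (right); colour gives the kind of host and the dashed line equal change. All points lie below 0 on the y axis, while hosts range from -1.85 to 2.03 at 3 h and from -2.21 to 2.61 at 6 h.

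Of the 10 hosts coding for ribosomal proteins, 0 were called lower at 3 h and 9 at 6 h, against 1.3% and 14.3% of all tested genes. Their median log2 fold change was -0.32 at 3 h and -0.56 at 6 h. With library size as the only scaling 2 of the 10 were called lower at 6 h, and the medians were -0.10 and -0.20. With the TMM scaling, the median of the 10 small RNAs in them was -0.90 at 3 h and -1.77 at 6 h. Of the 6 hosts called higher at each time, 5 were non-coding (Snhg12, Snhg1, Gas5, 2410006H16Rik and 1500012F01Rik) and 1, Eif4a2, codes for a protein. Across the 9 tested RNAs in 8 non-coding hosts the median host change was 1.90 at 3 h and 2.49 at 6 h, and the median change of the RNAs was -1.49 and -2.11. Of these 8 hosts 2, Snhg7 and Snhg9, were called lower at 6 h (1 with library size as the only scaling).

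Snhg12 rose from 23.1 and 21.9 CPM in control to 78.9 and 89.3 CPM at 3 h and 138 and 120 CPM at 6 h, a log2 fold change of 1.90 (SE 0.14, edgeR adjusted p = 0.000296) and 2.52 (SE 0.14, edgeR adjusted p = 4.10e-05), while Snora44 within it fell. Snora44 counts were 125% and 82.7% of the Snhg12 counts in control, 5.32% and 5.63% after 3 h, 2.81% and 6.30% after 6 h. Snora16a, also in Snhg12, had a 6 h log2 fold change of -1.74 and was not called (edgeR adjusted p = 0.0812). Snhg12 and Snora44 thus moved in opposite directions in the same libraries. The host of Snord65, 2410006H16Rik, rose from 45.3 and 40.2 CPM to 149 and 188 CPM at 3 h and 237 and 249.5 CPM at 6 h, log2 fold changes of 1.98 (SE 0.15, edgeR adjusted p = 0.000296) and 2.51 (SE 0.15, edgeR adjusted p = 4.71e-05). Snord65 counts went from 4.09% and 4.26% of the host's in control to 0.0557% and 0.123% at 6 h.

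Eif4a2 rose from 249 and 190 CPM in control to 508 and 479 CPM at 6 h, a log2 fold change of 1.17 (SE 0.14, edgeR adjusted p = 0.00126), as Snora81 fell by 3.42. Gas5, a non-coding host known as a target of nonsense-mediated decay, rose from 116 and 115 CPM to 223 and 234 CPM at 6 h, a log2 fold change of 0.98 (SE 0.10, edgeR adjusted p = 0.000641), as Snord47 within it fell. In contrast, Snhg9 fell with Snora78, from 4.59 and 3.42 CPM to 0.594 and 1.15 CPM at 6 h, a log2 fold change of -2.21 (SE 0.58, edgeR adjusted p = 0.0226). Snora78 held 294% and 296% of the Snhg9 counts in control and 300.0% and 193% at 6 h. Ncl fell by 0.55 on the log2 scale at 6 h (SE 0.12, edgeR adjusted p = 0.0102), a call lost with library size as the only scaling (-0.19), and Snora75 within it fell by 1.69. The hosts Rplp2 and Ipo7 had few counts themselves (0.944 and 4.80 CPM in the control mean), so Snora52 and Snora23 cannot be read against a well-measured host. The plot of 4 pairs sets host and small RNA on a common scale.

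**Figure D5:**
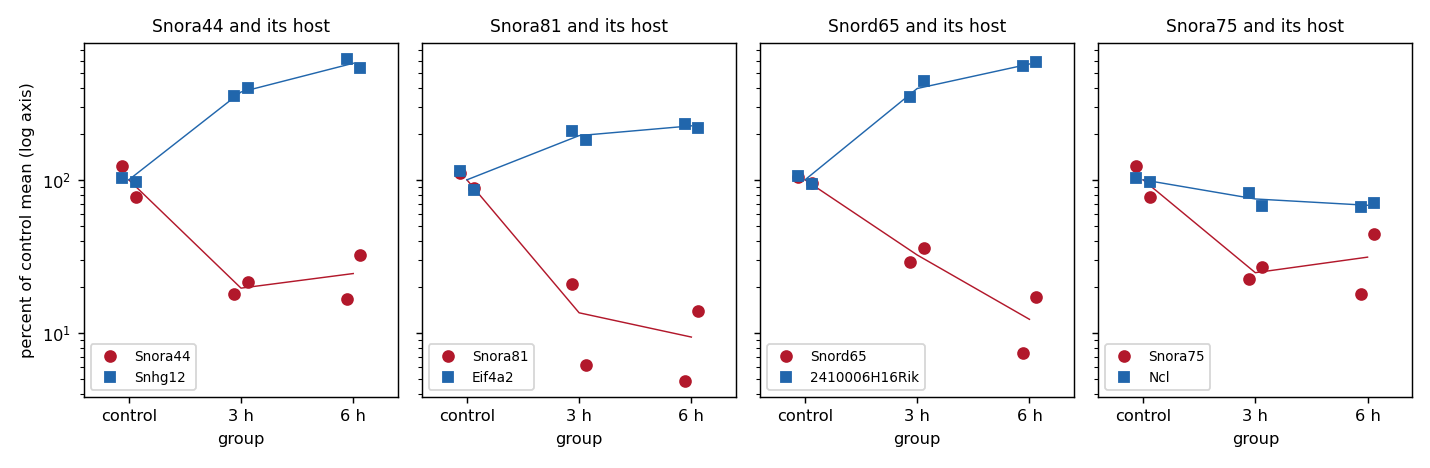
Level in each library as a percent of the control mean (y axis, log axis) in the 3 groups (x axis) for 4 small RNAs (red circles) and their host genes (blue squares); lines join group means. Snhg12, Eif4a2 and 2410006H16Rik rise as Snora44, Snora81 and Snord65 fall, while Ncl and Snora75 both fall.

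The genes for the proteins of these particles were counted from lists of core, assembly and processing factors. Of all 12755 tested genes, 3149 had an unadjusted edgeR p under 0.05 at 3 h. At 3 h 3.6% of all tested genes were called higher and 1.3% lower, and at 6 h 14.8% and 14.3%. Whether the lists differ from these shares was not tested. Of 6 tested H/ACA particle and assembly genes, 0 were called at 3 h by edgeR or limma-voom (1 had an unadjusted edgeR p under 0.05, and DESeq2 called 1 lower), and 1 was lower at 6 h. That was Nhp2, a core protein, at -0.43 (SE 0.10, edgeR adjusted p = 0.0156). Dkc1, which codes for the pseudouridine synthase dyskerin, had a 6 h value of 0.23 (edgeR adjusted p = 0.440). Of 11 C/D particle and assembly genes, 0 were called at 3 h by edgeR or limma-voom (5 had an unadjusted edgeR p under 0.05, and DESeq2 called 2 lower), and at 6 h 1 was higher and 3 were lower. Nop58, a core protein, was the higher one (0.43, edgeR adjusted p = 0.0339). The lower ones were Fbl, the methyltransferase fibrillarin (-0.42, edgeR adjusted p = 0.0202), the core protein gene Snu13 (-0.44, edgeR adjusted p = 0.0113) and the assembly factor gene Ruvbl1 (-0.64, edgeR adjusted p = 0.00706). With library size as the only scaling these 4 lower calls were lost, and 1 of the 6 H/ACA and 5 of the 11 C/D particle genes were called higher at 6 h. Under that scaling 3671 of all 12755 tested genes were called higher at 6 h.

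Of 5 Cajal body genes, Tgs1, the cap hypermethylase, was called higher at 3 h (0.62, edgeR adjusted p = 0.0290) and 6 h (0.57, edgeR adjusted p = 0.0104), and Wrap53, which brings RNAs to Cajal bodies, at 6 h (1.22, edgeR adjusted p = 0.00567). Of 11 genes for 3′ trimming and decay of small RNAs, Zcchc8, a subunit of the nuclear exosome targeting complex, was called higher at 3 h (0.55, edgeR adjusted p = 0.0460) and 6 h (0.81, edgeR adjusted p = 0.00312), and Zcchc7 at 6 h (0.71, edgeR adjusted p = 0.0126). The 3 h call of Zcchc8 was lost by limma-voom and with RLE scaling (0.53, edgeR adjusted p = 0.0511). Dbr1, the lariat debranching enzyme that opens excised introns, was called lower at 6 h (-0.68, edgeR adjusted p = 0.00672), a call lost with library size as the only scaling (-0.32). Under that scaling 4 of the 5 Cajal body and 5 of the 11 trimming and decay genes were called higher at 6 h. Between 6 h and 3 h, 0 genes of these 4 lists were called by edgeR, DESeq2 or limma-voom. Unadjusted edgeR p-values were under 0.05 for 1 of the 5 Cajal body and 1 of the 11 trimming and decay genes. The same held for 2315 of all 12755 tested genes. Among other small non-coding RNAs made from their own promoters, Terc, the H/ACA type RNA of telomerase, read 2.44 and 1.22 CPM in control, 0.194 and 0.520 CPM at 3 h, and 0.0660 and 0.115 CPM at 6 h; its 6 h log2 fold change was -4.28 (SE 0.92, edgeR adjusted p = 0.0106). Rpph1, the RNA of ribonuclease P, went from 5.04 and 5.62 CPM to 0.968 and 1.73 CPM at 3 h and 0.3298 and 0.306 CPM at 6 h; its 6 h log2 fold change was -4.03 (SE 0.54, edgeR adjusted p = 0.00170). Both stood in the order control, 3 h, 6 h with no overlap. Rmrp, the RNA of the related ribonuclease, read 0.889 and 0.733 CPM in control, 2.001 and 3.23 CPM at 3 h, and 1.12 and 2.68 CPM at 6 h, and its log2 differences of 1.67 and 1.201 were not called (edgeR adjusted p = 0.147 and 0.182).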

How the data were processed

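RNA of 6 bulk libraries was analysed, 2 for each of 3 groups taken from the sample titles. The deposited values are whole-number counts, 1 file of the authors per library. Per the submitters' processing notes the build was mm10; the aligner, counting program, annotation, strand setting and use of molecular identifiers are not given in the sources used here. Per the labels' protocols, RNA was extracted with TRIzol, barcoded and sequenced as a pool; the design text of the series mentions single-cell sequencing, but each file holds 1 column and was treated as 1 bulk library.

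Counts of 17485 genes were filtered (10 counts in the median library, as CPM, in 2 libraries and 15 in total) and scaled by TMM (trimming 30% of M and 5% of A values), which left 12755. They were fitted with edgeR 4.0.16 in R 4.3.3 (quasi-likelihood, group means, 3 residual degrees of freedom, two-sided, Benjamini-Hochberg). Library totals ran from 9385447 to 27351079, and spread between replicate libraries adds to the counting error. The script was tested on simulated counts. Alternatives were DESeq2 1.42.0, limma-voom (limma 3.58.1), other scalings and filters, a replicate block, thinning and leaving out each library. The genes and lists were chosen with earlier results of these data known. Named are the RNAs called in any comparison, the 10 most abundant and 10 fixed ones, of which 7 (Snord3a, Snord118, Snord13, Snora73a, Snora73b, Scarna2 and Scarna10) are not analysed here, plus their hosts, 4 other small RNAs (Rn7sk not analysed here) and the called genes of 4 protein lists; Snora16a, Snora30, Snora65, Snord12, Snord22, Snord38a, Snord87, Snord104 and Dkc1 were added after their values were seen. Some host genes are not reported here. Coordinates and sequences come from GENCODE M21.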

Additional observations from a re-analysis of the deposited data

How the results depend on the processing

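Against control, leaving out 1 library gave 0 to 4 called RNAs at 3 h and 4 to 14 at 6 h, with the lowest counts when a treated library of that time was left out; the lone library left was assumed to vary like the others. Deviations of same-numbered libraries correlated at 0.18, -0.03 and 0.02. With 2 libraries a group these values cannot show whether same-numbered libraries were made together, and the labels do not say. With the replicate block 3 RNAs were called at 3 h, 14 at 6 h and 0 between the times. Of the RNAs past the cutoff in 2 treated libraries, a limit chosen after seeing the data, 10 were called at 6 h. The H/ACA box median ranged from -1.72 to -0.83 at 3 h, from -2.16 to -1.17 at 6 h and from -0.78 to 0.25 between 6 h and 3 h when 1 library was left out, turning positive without the second 3 h (0.15) or first 6 h library (0.25). The H/ACA box sum did likewise: its log2 change ranged from -2.22 to -1.22 at 6 h against a main value of -1.64, and from -0.72 to 0.27 between the times, positive without the second 3 h (0.20) or first 6 h library (0.27). The C/D box median at 3 h was -0.66 with the stricter filter and -0.65 over RNAs past the cutoff in treated libraries. At 6 h it was -1.98 with library size alone and -1.69 over those RNAs, and ranged from -2.95 to -2.25 without 1 library. Between the times it was -1.50 by limma-voom, -0.27 with no filter, -1.39 with the stricter filter and -0.52 after thinning, and ranged from -1.21 to -0.57 without 1 library. The C/D box sum was -1.02 at 3 h and -1.55 at 6 h with library size alone, and -2.12 at 6 h without its most abundant RNA; without 1 library it ranged from -2.06 to -1.78 at 6 h and from -0.81 to -0.53 between the times. Fewer RNAs or libraries enter several of these fits; for the others the cause was not tested. Library size as the only scaling moved the median of all genes to 0.25 at 3 h and 0.40 at 6 h, and the share of higher calls from 73.4% to 95.8% and from 50.8% to 88.1% (DESeq2 gave 54.3% at 3 h). All genes called at 3 h numbered 625, against 1447 by DESeq2, 1373 with library size alone, 1816 with no filter and 236 with the compared libraries alone. For the 18 named RNAs, 21 of 54 comparisons were called; over their 311 alternatives the call was kept in 246 and lost in 65, a call was gained in 5 of 487 for the other 33, and 0 called directions reversed; Snora41, Snora44, Snora78 and Snora81 kept their 6 h call in all 15 alternatives. Too few counts for a test were found for 34 of 39 C/D box, 4 of 6 Cajal body and 7 of 33 H/ACA box RNAs; the parts of depth and capture were not tested.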
